A study of Callosobruchus maculatus with 24 samples.

Results

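The 10 genes described here changed their dominant transcript between body parts of the seed beetle Callosobruchus maculatus, in both sexes. Transcript counts were summed over the 6 libraries of each sex and body part, and a gene was chosen if it held at least 300 counts in each of the 4 sums, if a single transcript held at least 60% of its counts in the abdomen of females and of males, and if a different transcript held at least 60% in the head and thorax of females and of males. The members were thus chosen by their transcript shares in both body parts. Of the 29812 genes with 58250 transcripts in the table, 7170 held enough counts, 4453 of these had at least 2 transcripts, 154 had a different leading transcript in the body parts in both sexes, and 10 met the share of 60%, which is 0.225% of the 4453. In each of the 10, the transcript that led in the abdomen is called the abdomen transcript and the one that led in the head and thorax is called the head and thorax transcript.

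Genes can give rise to several transcripts through alternative promoters, alternative splicing and alternative polyadenylation. The choice between them often depends on the tissue, and can change the encoded protein or the stability and translation of the mRNA without a change in the amount transcribed. In insects, muscle, nervous tissue and gonads are known for tissue-specific transcripts, and an abdomen and a head with thorax hold different amounts of them.

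The study sequenced mated females, mated males, virgin females and virgin males of the strain South India, each as abdomens and as heads joined with thoraces, with 3 libraries per group and 24 in all. How the beetles were mated, how old they were and how many went into a library is not stated in the labels, which name no knockout and no treatment other than mating. The labels do not tie libraries to separate cultures, so p-values speak only of the spread among these libraries, part of which may be technical. Each library was made from a whole body part, in which more of a cell type and more RNA per cell of it cannot be told apart. The transcript and gene IDs come from an assembly and are paired with no gene names, and no sequences were at hand, so no function, protein or splice form is given for any of the 10 genes.

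Libraries held 7805440 to 10171662 estimated counts in the gene table. Every pair of replicate libraries differed beyond counting noise; chi-square divided by its degrees of freedom was at least 5.81. Some virgin head and thorax libraries stood apart from their groups: 1331 genes were at least 2-fold off the rest of the group in male replicate 1, 999 in male replicate 2 and 822 in female replicate 3, against 545 to 771 in the other libraries. Genes at least 2-fold above the rest of the group numbered 988 in male replicate 1, 328 in male replicate 2 and 503 in female replicate 3, against 284 to 401 in the others. Male replicate 1 and female replicate 3, chosen on this upward count, were left out together as an alternative, and male replicate 2 was left out on its own. The same rule then found 11 genes without the pair and 10 without male replicate 2, with all 10 genes among them.

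TR41584|c0_g1, which is listed with 2 transcripts, had the widest gap between its nearest libraries of the body parts. Its abdomen transcript, TR41584|c0_g1_i1, held 74.5%, 76.7% and 73.9% of the gene's counts in mated female abdomens, and 9.02%, 8.47% and 13.2% in mated female heads and thoraces. In virgin females it held 77.6%, 74.5% and 70.8% in abdomens, and 9.54%, 9.88% and 11.9% in heads and thoraces. Females of both mating states thus gave nearly the same shares, and no library of either body part came near the other body part. Male libraries spread more in the abdomen, with 62.0%, 79.3% and 83.5% in mated and 69.1%, 70.7% and 80.5% in virgin males, against 8.60%, 6.19% and 6.96% in mated and 6.62%, 6.81% and 7.49% in virgin male heads and thoraces. The lowest abdomen library and the highest head and thorax library were 48.9 percentage points apart. By mean share TR7953|c1_g3 differed more in both sexes, and TR36372|c5_g2 differed more in females. Each of these values chose the gene, so they are descriptions and carry no test.

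The switch held in every library in 5 more genes, in the sense that the abdomen transcript led in all 12 abdomens and the other led in all 12 heads and thoraces. The first 4 of them follow here, and TR59688|c0_g1 is described with the genes in which another transcript took part. TR28274|c4_g1 has 2 transcripts, and its abdomen transcript i2 averaged 71.1% ± 2.14 in female abdomens and 29.6% ± 2.15 in female heads and thoraces (SD, n = 6 each). In males the averages were 78.2% ± 5.58 in abdomens and 25.8% ± 3.25 in heads and thoraces (SD, n = 6 each). The 2 transcripts of this gene were thus both present in every library, with the major and the minor one exchanged.

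TR37751|c2_g3 is listed with 6 transcripts, but the abdomen transcript i2 and the head and thorax transcript i4 held nearly all of its counts. The abdomen transcript averaged 79.4% ± 4.11 in female abdomens and 22.9% ± 3.44 in female heads and thoraces, and 69.3% ± 2.48 in male abdomens and 12.3% ± 3.32 in male heads and thoraces (SD, n = 6 each). The other 4 transcripts each held at most 0.401% of any of the 4 sums. This gene and TR63554|c0_g7 combine a switch with high counts, 2404 to 3295 per abdomen and 6926 to 10956 per head and thorax for TR37751|c2_g3, so that their shares rest on the most reads among the genes with a switch in every library.

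TR63554|c0_g7 is listed with 5 transcripts. Its abdomen transcript i3 averaged 85.8% ± 2.74 in female abdomens and 24.9% ± 6.05 in female heads and thoraces, against 60.2% ± 2.20 in male abdomens and 19.2% ± 1.10 in male heads and thoraces (SD, n = 6 each). Male abdomens lay only just above the share of 60% that the rule asks for, while female abdomens were far above it.

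TR73907|c0_g1 was the least abundant of the genes with a switch in every library, with 47 to 92 counts per library. Its abdomen transcript i1 averaged 80.8% ± 9.44 in female abdomens and 21.3% ± 5.43 in female heads and thoraces, and 67.1% ± 8.0 in male abdomens and 15.3% ± 5.69 in male heads and thoraces (SD, n = 6 each). The body parts did not overlap, with 26.6 percentage points between the nearest libraries. The rule summed these same counts, which favours such a gap.

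**Figure D1:**
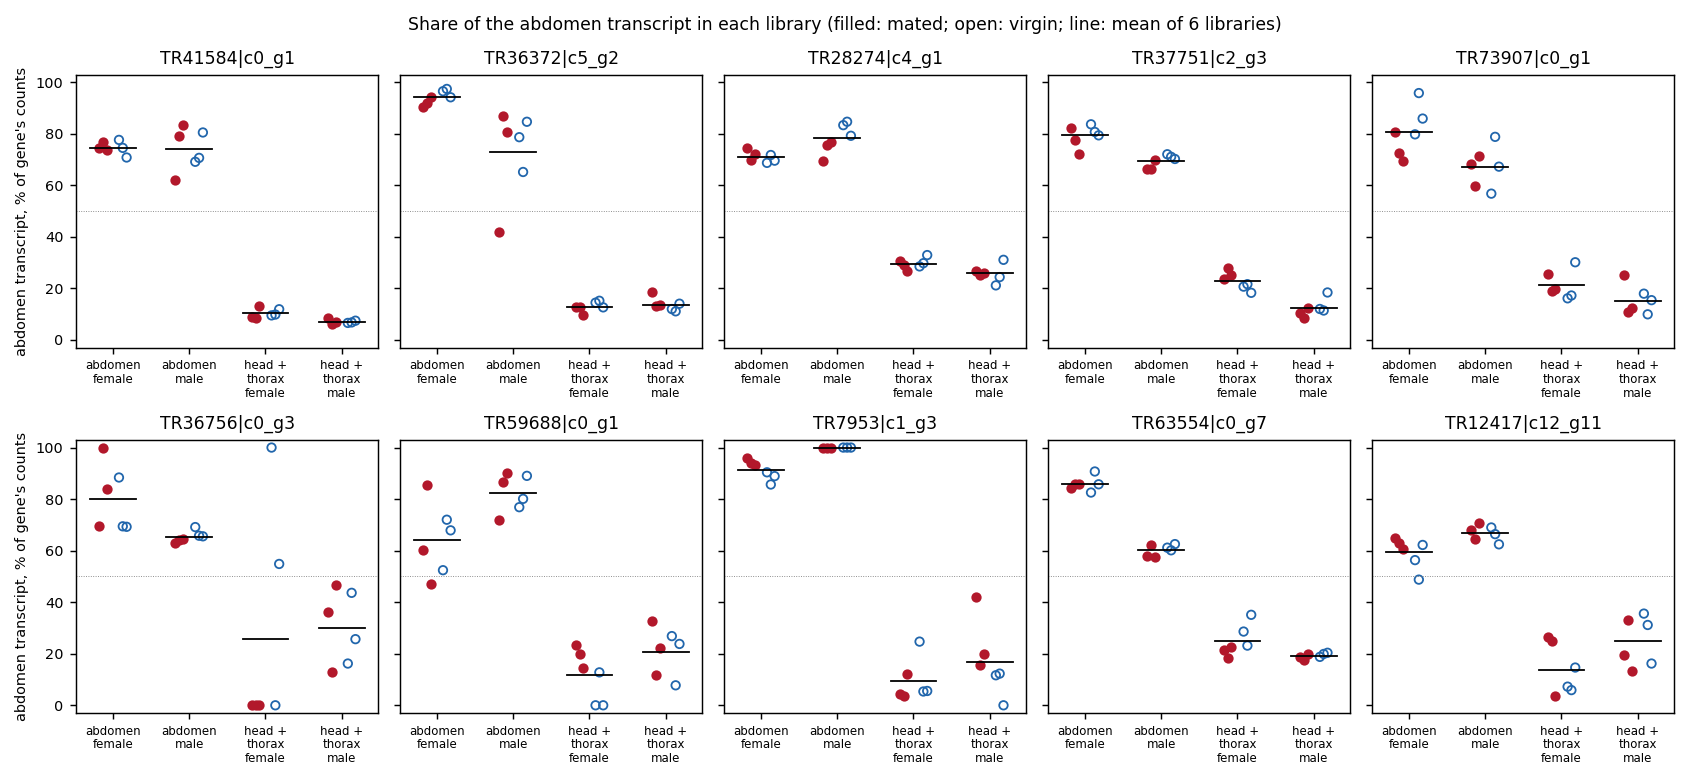
Share of the abdomen transcript (% of the gene's estimated counts) in each library of the 10 genes, by body part and sex; filled points are mated, open points virgin beetles, and lines are means of 6 libraries. In 9 genes every abdomen lies above every head and thorax, and TR36756|c0_g3 is the exception, with female heads and thoraces between 0% and 100%. The rule chose the genes by sums of these counts, so this order is a description.

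In the remaining 5 genes, at least 1 library departed from the order of the sums or another transcript took part. TR36372|c5_g2 had counts that were very uneven between body parts, 144 to 240 per female abdomen and 7045 to 9259 per female head and thorax. Its abdomen transcript i10 held 90.5%, 91.9% and 94.2% in mated and 96.5%, 97.4% and 94.2% in virgin female abdomens, against 13%, 12.8% and 9.70% in mated and 14.5%, 15.2% and 12.7% in virgin female heads and thoraces. In male abdomens it held 41.8%, 86.9% and 80.8% in mated and 78.7%, 65.2% and 84.7% in virgin beetles, against 11.1% to 18.6% in male heads and thoraces. The mated male abdomen replicate 1 was the one abdomen in which the head and thorax transcript i11 led, with 58.0%. Over all libraries, the transcript table holds 92.6% of this gene's count in the gene table, so some reads are assigned to no transcript used here. The gap was wider in abdomens. In counts relative to the library total (CPM, scaled per table), the gene was at 25.1 in female and 82.2 in male abdomens. There i10 and i11 were at 13.3 and 0.822 in females, and 45.9 and 17.6 in males. In female heads and thoraces the gene was at 1011, and i10 and i11 at 137 and 911. Abdomen shares thus cover assigned reads only, and whether i10 held 60% of all reads there was not examined.

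TR12417|c12_g11 met the rule by the smallest margin, with 60.1% of the summed counts in female abdomens. Its abdomen transcript i2 held 65.1%, 63.0% and 60.6% in mated and 56.3%, 48.8% and 62.2% in virgin female abdomens, against 26.7%, 24.8% and 3.80% in mated and 7.24%, 5.89% and 14.6% in virgin female heads and thoraces. The virgin female abdomen replicate 2 was thus close to an even split. Male abdomens averaged 66.8% ± 2.98, and male heads and thoraces 24.8% ± 9.64 (SD, n = 6 each).

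TR36756|c0_g3 had a switch that female libraries did not share evenly. Its abdomen transcript i1 held 69.5%, 100% and 84.0% in mated and 88.4%, 69.4% and 69.3% in virgin female abdomens. In female heads and thoraces it was listed at 0 in all 3 mated libraries, and it held 100%, 0% and 54.8% in virgin ones, at 69 to 110 counts of the gene per library. These libraries overlapped the abdomens, with an SD of 42.5 percentage points (n = 6). Shares at such counts are coarse. TR73907|c0_g1, at 47 to 92 counts per library, had an SD of 5.43 in female heads and thoraces (n = 6). The cause of the wider spread in TR36756|c0_g3 was not tested. Male abdomens were even, at 65.3% ± 2.16 (SD, n = 6) from 7808 to 8861 counts each, against 12.8% to 46.7% in male heads and thoraces.

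TR59688|c0_g1 is listed with 3 transcripts. The abdomen transcript i1 held 60.3%, 85.3% and 47.2% in mated and 52.4%, 72.0% and 67.9% in virgin female abdomens, against 23.6%, 19.9% and 14.4% in mated and 0%, 12.8% and 0% in virgin female heads and thoraces. The low mated female abdomen still had i1 as its leading transcript, since i2 and i3 shared the rest. In males, abdomens averaged 82.4% ± 7.33 and heads and thoraces 20.9% ± 9.39 (SD, n = 6 each).

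TR7953|c1_g3 is also listed with 3 transcripts, and came closest to an exclusive use in the abdomen. The abdomen transcript i1 held 95.8%, 94.0% and 93.3% in mated and 90.4%, 85.7% and 88.9% in virgin female abdomens, and 100% in all 6 male abdomens, at 137 to 229 counts per abdomen. The head and thorax transcript i3 was listed at 0 in male abdomens, where 0 of 1198 counts allows a share of up to 0.250%; such limits cover counting error only, not the splitting of reads between transcripts. In heads and thoraces i3 led in 10 of 12 libraries, with 60.2% ± 22.8 in females and 83.1% ± 13.9 in males (SD, n = 6 each). The 2 exceptions were the virgin female replicates 2 and 3, in which the third transcript, i2, led with 59.1% and 52.6%.

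The threshold of 60% divided a continuous range of shares. The 3 genes just inside it were TR12417|c12_g11, TR63554|c0_g7 and TR7953|c1_g3, whose smallest share was 60.1%, 60.2% and 61.7%. The 3 genes just outside it were TR29752|c0_g2, TR24094|c8_g2 and TR55285|c11_g2, with 59.9986%, 59.5% and 59.0%. A threshold of 50% would include 50 genes and one of 70% only 3, TR41584|c0_g1, TR36372|c5_g2 and TR28274|c4_g1.

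The 10 genes were not rich in listed transcripts. They had a median of 2.5 transcripts (2 to 6), against 3 (2 to 50) over the 4453 genes with enough counts and at least 2 transcripts. Their median total was 25244 counts, against 8988 over the same 4453 genes. These are descriptions of how the genes compare with those the rule could have chosen.

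Levels of each transcript were set side by side to see which of the pair differed between body parts. They are given as CPM, counts relative to the library total after TMM scaling, from the transcript table, and as the difference of mean log2 CPM, abdomen minus head and thorax. As the rule used this contrast, no test is given. In 4 genes, TR41584|c0_g1, TR28274|c4_g1, TR37751|c2_g3 and TR63554|c0_g7, the log2 difference of the abdomen transcript lay between -1.15 and 0.90, and that of the head and thorax transcript between -5.21 and -2.79.

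The abdomen transcript of TR41584|c0_g1 averaged 12.6 ± 2.77 CPM in female abdomens and 18.8 ± 4.43 CPM in female heads and thoraces, and 33.7 ± 3.35 CPM in male abdomens and 18.0 ± 1.67 CPM in male heads and thoraces (SD, n = 6 each). Its head and thorax transcript averaged 4.25 ± 0.882 CPM in female abdomens and 164 ± 25.5 CPM in female heads and thoraces, a log2 difference of -5.21. For TR63554|c0_g7 the log2 difference of the abdomen transcript was -0.05 in females and 0.38 in males, and that of the head and thorax transcript was -4.92 in females and -2.79 in males. In TR37751|c2_g3 the abdomen transcript differed by -0.29 in females and 0.65 in males, and the other transcript by -4.04 in females and -3.41 in males. TR28274|c4_g1 gave -1.15 and 0.49 for its abdomen transcript, and -3.68 and -2.91 for the other, in females and males. Other scalings were tried on gene levels only, so how far they would move these transcript differences was not examined. No direction is read from the smaller differences in females.

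In another 3 genes, TR73907|c0_g1, TR59688|c0_g1 and TR7953|c1_g3, the transcripts differed in opposite directions in both sexes. In the first set of genes the signs were opposite in males, where the abdomen transcript differed by 0.38 to 0.90. The abdomen transcript of TR59688|c0_g1 averaged 15.2 ± 3.81 CPM in female abdomens and 5.44 ± 4.49 CPM in female heads and thoraces, while the head and thorax transcript averaged 4.01 ± 2.40 CPM in female abdomens and 38.2 ± 4.24 CPM in female heads and thoraces (SD, n = 6 each). The log2 differences in TR73907|c0_g1 were 0.98 in females and 1.75 in males for the abdomen transcript, and -2.85 in females and -1.61 in males for the other. The abdomen transcript of TR7953|c1_g3 was higher in the abdomen by 3.48 in females and 3.71 in males on the log2 scale.

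The last 3 genes each had a pattern of their own. In TR36372|c5_g2 both transcripts were lower in the abdomen: i10 averaged 13.3 ± 2.32 CPM in female abdomens and 137 ± 29.8 CPM in female heads and thoraces, and i11 averaged 0.822 ± 0.415 CPM in female abdomens and 911 ± 111 CPM in female heads and thoraces (SD, n = 6 each). In TR12417|c12_g11 the abdomen transcript was higher in the abdomen, with log2 differences of 3.81 in females and 3.22 in males. The other transcript differed by 0.33 in females, from which no direction is read, and by 0.54 in males. In males of TR36756|c0_g3 both transcripts were higher in the abdomen, the abdomen transcript by 5.52 and the other by 3.28. In females the differences were 2.75 (SE 1.08) for the abdomen transcript and -2.18 (SE 1.08) for the other. The female abdomen transcript averaged 4.75 ± 0.915 CPM in abdomens and 2.64 ± 4.58 CPM in heads and thoraces (SD, n = 6 each). Only 2 of these 6 heads and thoraces had counts of it, so no direction is read in females.

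**Figure D2:**
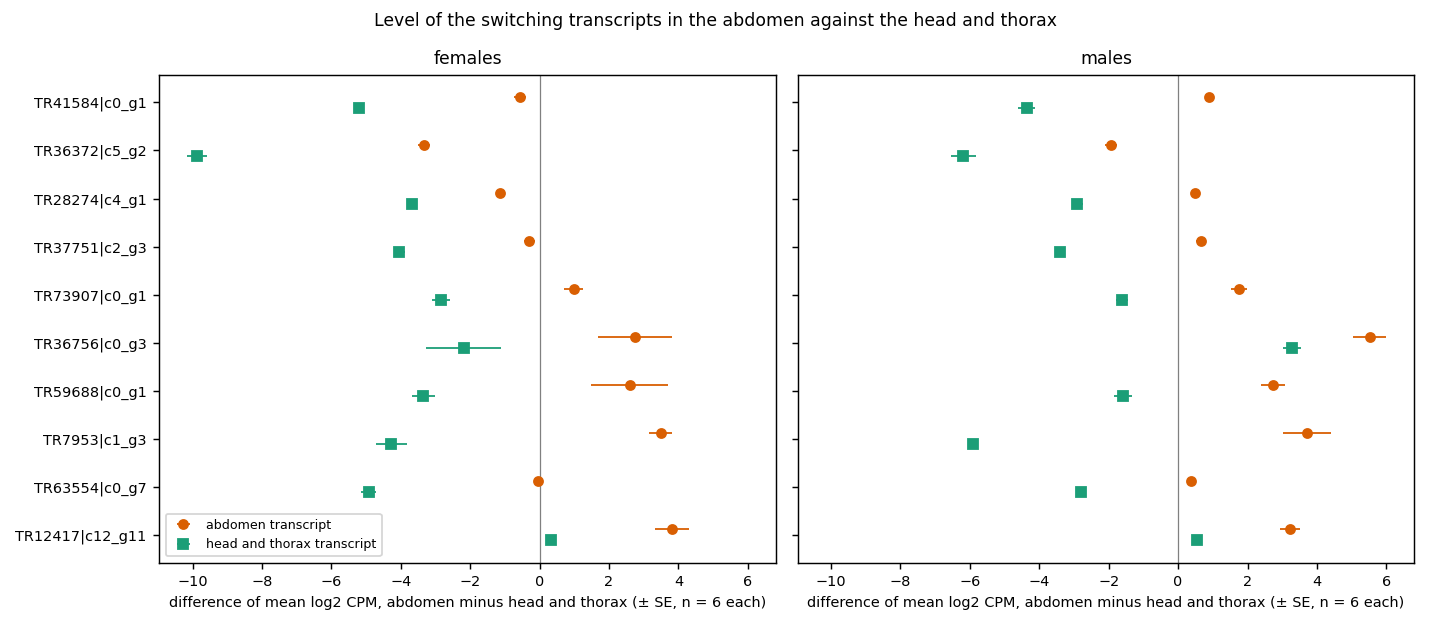
Difference of mean log2 CPM, abdomen minus head and thorax (± SE, n = 6 libraries each), of the abdomen transcript (circles) and the head and thorax transcript (squares) of each gene, in females and in males. Circles lie between -0.57 and 0.90 in TR41584|c0_g1, TR37751|c2_g3 and TR63554|c0_g7, while their squares lie between -2.79 and -5.21.

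Summed over its transcripts, the gene level differed by more than 1 on the log2 scale between body parts, in both sexes, in 6 of the 10 genes. The share of all genes that did so was not computed, so the count only describes these 10. By the gene table, TR36372|c5_g2 had a log2 difference, abdomen minus head and thorax, of -5.32 in females and -4.07 in males. TR12417|c12_g11 was higher in the abdomen, by 1.66 in females and 1.53 in males. TR36756|c0_g3 had -0.67 in females and 4.09 in males. The median over the 10 genes was -1.14 in females and -0.89 in males, against 0.19 and 0.02 over 15558 genes. 2 of 10 genes in females and 4 of 10 in males were higher in the abdomen, and these counts were the same with library size only and with the size factors of DESeq2. For these counts, too, the share over all genes was not computed. Scaling moved the median of all genes in females to 0.38 with library size only and to 0.07 with the size factors of DESeq2. Levels of TR73907|c0_g1, TR59688|c0_g1 and TR7953|c1_g3 differed by less than 1 on the log2 scale in either sex. TR59688|c0_g1 averaged 25.3 ± 2.12 CPM in female abdomens and 39.7 ± 4.63 CPM in female heads and thoraces, against 63.5 ± 3.18 CPM in male abdomens and 46.5 ± 3.70 CPM in male heads and thoraces (SD, n = 6 each).

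Whether the sexes used the transcripts differently within a body part was tested with edgeR's test of transcript usage, which asks whether a transcript changes against its gene as a whole and gives an adjusted p per gene by the Simes method. The rule used the share of each sex, and the same transcript had to lead in both, which limited how far the sexes could differ. The tests in both body parts thus use values that helped to choose the genes. Their p-values speak only of the spread among libraries, and nothing is read from the number of genes called. In the abdomen 9 of the 10 genes could be tested, and 3 passed the threshold of 0.05, where 19.1% of 5874 genes passed. TR7953|c1_g3 was not among those tested, since only 1 of its transcripts passed the low-count filter in abdomens.

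TR63554|c0_g7 gave less of its head and thorax transcript i2 in female than in male abdomens. This transcript held 9.59%, 8.71% and 8.02% in mated and 13.8%, 5.07% and 8.15% in virgin female abdomens, against 29.2%, 23.6% and 30.8% in mated and 26.7%, 28.4% and 24.2% in virgin male abdomens. All 6 female libraries were below all 6 male libraries. Its log2 usage change, female over male, was -1.11, with an adjusted p of 1.69e-07 for the gene by edgeR's Simes test. A minor transcript, i4, changed in the same direction by -1.16 (adjusted p = 0.000443 by edgeR over all transcripts), at 2.55% of the summed counts in female and 8.06% in male abdomens.

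TR59688|c0_g1 had another transcript, i3, that was found in female abdomens and not in male ones. It held 28.1%, 7.79% and 36.3% in mated and 7.53%, 19.3% and 9.08% in virgin female abdomens, and was listed at 0 in all 6 male abdomens, where 0 of 3142 counts allows a share of up to 0.0955%. All 6 female abdomens were thus above all male ones, at shares that varied widely among themselves. The gene passed with an adjusted p of 8.92e-08 by edgeR's Simes test. In heads and thoraces i3 had counts in 1 virgin female library, at 5.50%, and in 1 virgin male library, at 7.13%.

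TR36372|c5_g2 gave less of the head and thorax transcript i11 in female abdomens, where it held 8.73%, 8.13% and 5.85% in mated and 3.48%, 1.68% and 5.83% in virgin beetles. In male abdomens it held 58.0%, 13.1% and 19.2% in mated and 21.0%, 34.6% and 15.3% in virgin beetles. The groups did not overlap, and the log2 usage change was -1.57 with an adjusted p of 0.00199 by edgeR's Simes test. Without the mated male abdomen replicate 1 the change was -1.23 and the call was lost (adjusted p = 0.0715 by edgeR).

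TR37751|c2_g3 passed as a transcript but not as a gene. Its head and thorax transcript i4 averaged 20.1% ± 4.15 in female and 30.3% ± 2.46 in male abdomens (SD, n = 6 each), with a log2 usage change of -0.41 and an adjusted p of 0.0375 by edgeR over all transcripts, but of 0.0584 for the gene by edgeR's Simes test. The other 5 genes tested, TR12417|c12_g11, TR28274|c4_g1, TR36756|c0_g3, TR41584|c0_g1 and TR73907|c0_g1, had adjusted p-values of 0.149 to 1 by the same test, which does not show that the sexes used them alike. Of the 9 genes, 7 passed with edgeR's F test per gene, which called 30.7% of all genes, and 7 with limma's, which called 31.6%. By the Simes test, TR7953|c1_g3 could be tested and passed in 10 of the 12 fits with a library left out and in the fit with no low-count filter. The number of genes called was 5 without the mated female abdomen replicate 1, with TR36756|c0_g3 added, and 5 without the mated female abdomen replicate 3, with TR37751|c2_g3 added.

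**Figure D3:**
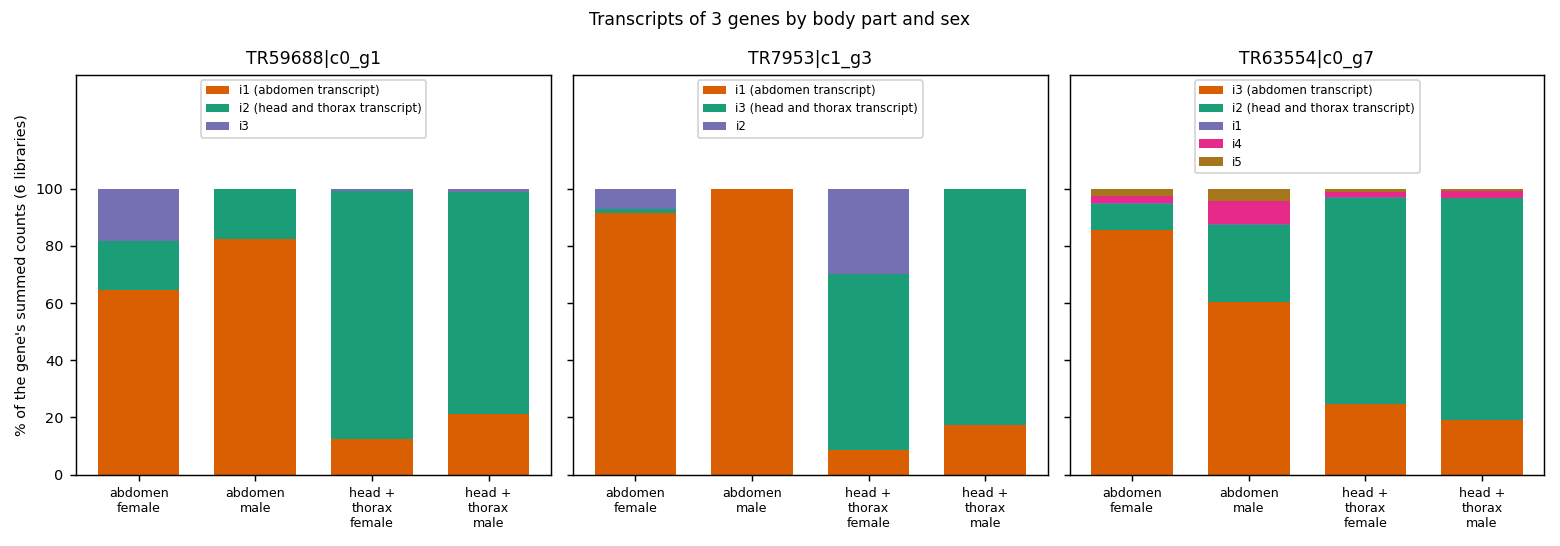
Share of each transcript (% of the gene's summed estimated counts over 6 libraries) in 3 genes with more than 2 transcripts, by body part and sex. The third transcript of TR59688|c0_g1 holds 18.3% in female abdomens and that of TR7953|c1_g3 holds 29.7% in female heads and thoraces, while both are at 0% in male abdomens.

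In heads and thoraces all 10 genes could be tested, and 2 passed, where 3.92% of 5260 genes passed. TR37751|c2_g3 gave more of its abdomen transcript i2 in females, with 23.8%, 27.9% and 25.3% in mated and 20.7%, 21.7% and 18.3% in virgin females, against 10.6%, 8.59% and 12.6% in mated and 12%, 11.4% and 18.4% in virgin males. The lowest female and the highest male library were nearly level, and the other libraries were well apart. The log2 usage change, female over male, was 0.63 with an adjusted p of 0.00658 by edgeR's Simes test. Without the mated male head and thorax replicate 2 it was 0.59 and the call was lost (adjusted p = 0.0595 by edgeR). The abdomen transcript of this gene thus had the larger share in females in both body parts, with a call in the head and thorax.

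TR7953|c1_g3 had the third transcript, i2, in female heads and thoraces only among the libraries of that body part. It held 46.4%, 0% and 25% in mated and 0%, 59.1% and 52.6% in virgin females, and was listed at 0 in all 6 males, where 0 of 744 counts allows a share of up to 0.403%. Females thus varied from none to more than any other transcript of the gene. The adjusted p of the gene was 0.00707 by edgeR's Simes test, and 0.108 without the pair of libraries left out together. Both calls in heads and thoraces were kept without the virgin male replicate 2. Of the 10 genes, 3 passed with edgeR's F test, which called 8.82% of all genes, and 3 with limma's, which called 10.6%; both added TR41584|c0_g1, and limma added TR63554|c0_g7 and lost TR7953|c1_g3. In abdomens the same transcript held 7.15% of the summed counts in females, with counts in all 6 libraries, and had none in males.

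Mating left no call of transcript usage in any of the 10 genes. In female abdomens 0 of 9 genes passed edgeR's Simes test, where 0.494% of genes passed, and none had an unadjusted p under 0.05. In male abdomens 0 of 9 passed, where 0.289% of genes did, and none had an unadjusted p under 0.05. In heads and thoraces 0 of 10 passed in females, where 0.057% of genes did, and 0 of 10 in males, where 0.076% did. At an unadjusted p under 0.05 there was 1 gene in female heads and thoraces, TR36756|c0_g3, and there was none in males. The F tests of edgeR and limma made no call among the 10 genes in any of the 4 comparisons. edgeR's F test called 1.36% of all genes in female and 1.16% in male abdomens, and 0.285% in female and 0.475% in male heads and thoraces. limma called 3.85% in female and 0.664% in male abdomens, and 0.076% in both sexes in heads and thoraces. TR36756|c0_g3 is the gene whose abdomen transcript was listed at 0 in mated female heads and thoraces and at 100%, 0% and 54.8% in virgin ones, and its adjusted p was 0.5 by edgeR's Simes test.

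The summed level of the 10 genes was tested against mating within each body part with edgeR's quasi-likelihood test on the gene table. In female abdomens 4 genes rose and 1 fell after mating, where 8.18% of 14563 genes rose and 6.28% fell. TR37751|c2_g3 was at 286, 284 and 276 CPM in mated and 219, 222 and 231 CPM in virgin female abdomens. The groups did not overlap, and the log2 fold change was 0.38 (SE 0.0454, adjusted p = 0.00111 by edgeR). TR12417|c12_g11 was at 204, 227 and 201 CPM in mated and 144, 148 and 157 CPM in virgin female abdomens. All mated libraries were above all virgin ones, and the log2 fold change was 0.55 (SE 0.0805, adjusted p = 0.00235 by edgeR).

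TR41584|c0_g1 was at 21.9, 20.8 and 21.1 CPM in mated and 15.5, 15.2 and 13.8 CPM in virgin female abdomens, with no overlap. The log2 fold change was 0.57, with an SE of 0.131 and an adjusted p of 0.0155 by edgeR. The call was lost without the mated replicate 1 (adjusted p = 0.0508), the virgin replicate 1 (0.0593) or the virgin replicate 3 (0.0568), all by edgeR. TR59688|c0_g1 passed narrowly, at 0.24 on the log2 scale (SE 0.0723, adjusted p = 0.0498 by edgeR), and its call was lost in 15 of 18 alternative settings. It was 0.14 without the virgin replicate 1 and 0.12 with library size only. TR73907|c0_g1 was at 4.34, 4.14 and 5.0 CPM in mated and 7.40, 7.31 and 7.84 CPM in virgin female abdomens. It was the gene that fell, by 0.69 on the log2 scale (SE 0.132, adjusted p = 0.0073 by edgeR), and no mated library reached the virgin ones. The median log2 fold change over the 10 genes was 0.11, against 0 over all genes tested, and with library size only these medians were -0.01 and -0.11.

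Mating left no call of level elsewhere. In male abdomens 0 of 10 genes passed, where 1.48% of genes rose and 1.3% fell, with 2 genes at an unadjusted p under 0.05, and DESeq2, with 7.08% of genes called in either direction, called 1, TR12417|c12_g11. Its log2 fold change was 0.30 (SE 0.0820, adjusted p = 0.0861 by edgeR). In female heads and thoraces 0 of 10 passed, where 0.621% of genes rose and 0.314% fell, with 3 at an unadjusted p under 0.05, and DESeq2, with 3.85% of genes called, called 1, TR41584|c0_g1 (log2 fold change 0.32, adjusted p = 0.214 by edgeR). In male heads and thoraces 0 of 10 passed, where 0.069% rose and 0.00766% fell, with none at an unadjusted p under 0.05 and no call by DESeq2, which called 1.45% of genes.

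The response of level to mating differed between the sexes in the abdomen in 2 of the 10 genes by edgeR's test of the interaction, where 8.28% of genes had such a difference. These were TR37751|c2_g3, with an interaction of 0.38 (adjusted p = 0.00746 by edgeR), and TR73907|c0_g1, with -0.88 (adjusted p = 0.0175 by edgeR). In TR37751|c2_g3 mated and virgin male abdomens were at a like level, and in TR73907|c0_g1 mated male abdomens were the higher ones, short of a call. The other 3 genes called in female abdomens were not shown to respond differently in males.

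Most of the 10 genes were lower in females than in males. In the abdomen 9 were lower and 1 was higher in females, so that all 10 passed edgeR's quasi-likelihood test, where 41.3% of genes were lower and 39.4% were higher. The median log2 fold change, female over male, was -1.01, against -0.03 over all genes tested, and with library size only these were -0.64 and 0.33, with 8 of 10 genes called. TR73907|c0_g1 and TR63554|c0_g7 were those not called with library size only, at -0.01 and -0.06 on the log2 scale (adjusted p = 0.919 and 0.150 by edgeR).

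TR36756|c0_g3 differed most, with 6.24, 5.20 and 5.18 CPM in mated and 7.92, 6.47 and 7.67 CPM in virgin female abdomens, against 937, 1069 and 1083 CPM in mated and 1084, 911 and 991 CPM in virgin male abdomens. Every female library was far below every male library, and the log2 fold change was -7.34 (SE 0.0830, adjusted p = 6.66e-14 by edgeR). TR36372|c5_g2 followed with -1.75, TR59688|c0_g1 with -1.36, TR41584|c0_g1 with -1.24, TR28274|c4_g1 with -1.13 and TR7953|c1_g3 with -0.89, at adjusted p-values of 1.14e-07 or lower by edgeR. TR37751|c2_g3 had -0.47, TR63554|c0_g7 -0.42 and TR73907|c0_g1 -0.37. TR12417|c12_g11 was the gene higher in females, by 0.26 on the log2 scale (SE 0.0574, adjusted p = 0.00149 by edgeR).

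In heads and thoraces 5 of the 10 genes were lower and 1 was higher in females, where 24.4% of 13051 genes were lower and 25.4% were higher. TR36756|c0_g3 was again the most different, at 10.3, 11.1 and 12 CPM in mated and 10.2, 10.8 and 7.66 CPM in virgin females, against 65.2, 67.5 and 83.4 CPM in mated and 25.9, 52.6 and 85.9 CPM in virgin males. All females were below all males, although virgin males varied by more than 3-fold, and the log2 fold change was -2.49 (SE 0.264, adjusted p = 3.07e-05 by edgeR). TR7953|c1_g3 had -0.67, TR37751|c2_g3 and TR41584|c0_g1 both -0.54, and TR36372|c5_g2 -0.34, at adjusted p-values of 0.00745 or lower by edgeR. TR12417|c12_g11 was higher in females, as in the abdomen, by 0.27 (adjusted p = 0.00917 by edgeR). TR28274|c4_g1, TR59688|c0_g1, TR63554|c0_g7 and TR73907|c0_g1 had log2 fold changes of -0.12 to -0.07 that did not pass. The sex difference of level changed with the body part in 6 of the 10 genes by edgeR's interaction test, where 57.5% of genes did so, and the difference was wider in the abdomen in 5 of these 6, TR37751|c2_g3 being the other, whose sex differences of -0.47 and -0.54 from the fits within a body part were nearly alike.

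**Figure D4:**
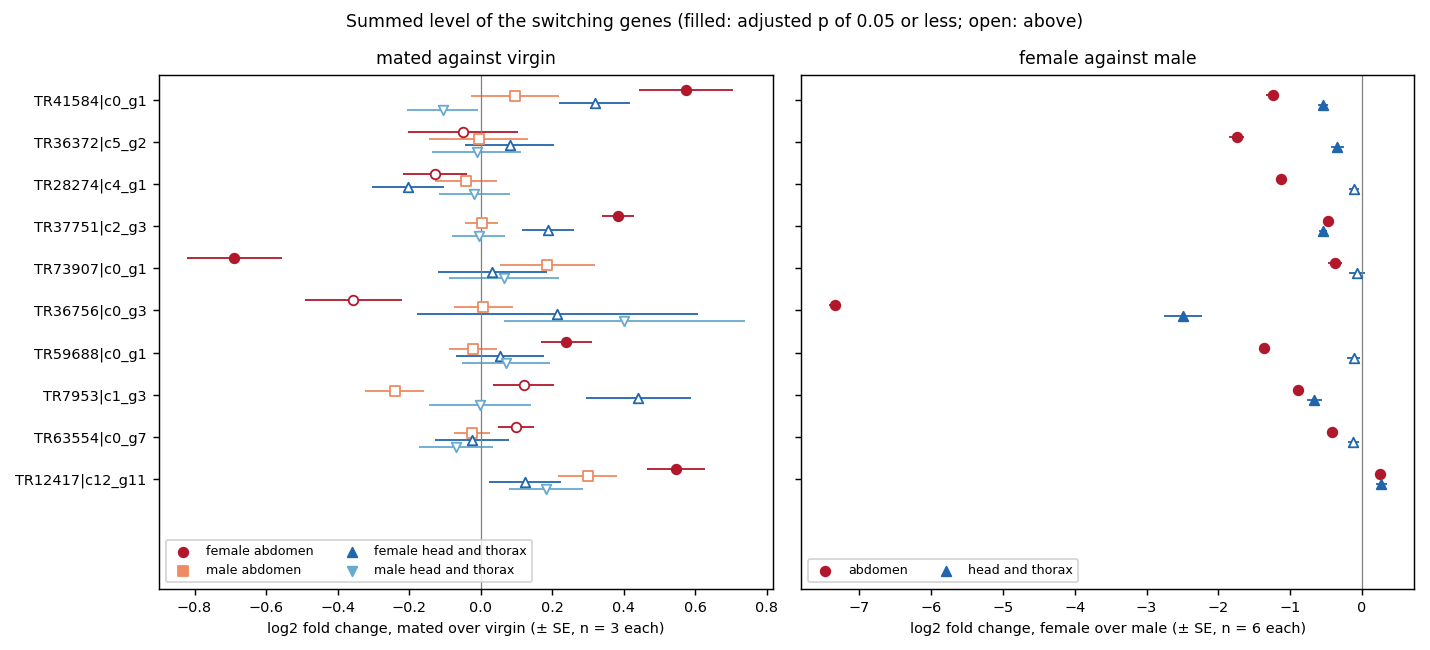
Log2 fold change of the summed level of each gene (± SE), mated over virgin in 4 sets of libraries (left, n = 3 each) and female over male in each body part (right, n = 6 each); filled symbols have an adjusted p of 0.05 or less by edgeR. Filled symbols on the left are confined to female abdomens, and on the right TR36756|c0_g3 stands at -7.34 in the abdomen while TR12417|c12_g11 is the gene above 0.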

How the data were processed

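Estimated counts (also called expected counts) were deposited for genes and for transcripts without normalisation, both lanes of a library in 1 column; 14.1% of values were not whole in the gene table and 40.0% in the transcript table. The tools named, per the submitters' processing notes, are Bowtie 0.12.6, Trimmomatic 0.3, cutadapt 1.2.1 and FastQC 0.11.2. Per the labels' protocols libraries were made from mRNA with a stranded kit. What program split reads between transcripts, on which reference and with what use of strand, is not given in the sources used here. Shares therefore depend on that splitting, are not corrected for transcript length, and can be affected by near-identical, overlapping or antisense genes. For 4524 genes the transcripts sum to another value than the gene table by over 0.5.

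Values were rounded to whole numbers and fitted with edgeR 4.0.16 in R 4.3.3 (TMM, filterByExpr by group, robust quasi-likelihood fit), over the 12 libraries of a body part and all genes. Transcript usage was tested with diffSpliceDGE (Simes per gene) and level with glmQLFTest, both with Benjamini-Hochberg adjustment over all genes tested and a threshold of 0.05. SEs of level were derived from the F statistic. Interactions of sex and body part used all 24 libraries. Log2 CPM used a prior count of 2. limma 3.58.1 and DESeq2 1.42.0 were alternatives. The tests were tried on simulated counts. The members, lists and tests were chosen with earlier results of these data known, and all 10 genes could be named by rule. A run without 2 libraries was added after the data were seen. Replicate numbers did not pair libraries.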

Additional observations from a re-analysis of the deposited data

Results flagged for a closer look

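Transcript usage differed between the sexes by amounts that depended on the body part in 2 of the 10 genes by edgeR's interaction, which called 5.85% of 6341 genes. The shares in each sex and body part chose the genes, so these values are a description, with no p, and nothing is read from the count. The head and thorax transcript TR36372|c5_g2_i11 had an interaction of -1.58 on the log2 scale: its share was 5.61% ± 2.69 in female and 26.9% ± 17.0 in male abdomens, against 86.8% ± 1.99 in female and 85.9% ± 2.59 in male heads and thoraces (SD, n = 6 each). TR63554|c0_g7_i2 had an interaction of -1.04, with 8.90% ± 2.86 in female and 27.2% ± 2.84 in male abdomens, and 72.0% ± 6.06 in female and 77.5% ± 1.12 in male heads and thoraces (SD, n = 6 each). The male abdomen values of TR36372|c5_g2_i11 include the mated replicate 1 at 58.0%.

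The level of 6 of the 10 genes had an interaction of sex and body part, where 57.5% of 15558 genes did. The log2 values, positive where the female level was relatively higher in the abdomen, were -0.87 for TR28274|c4_g1, -1.26 for TR36372|c5_g2, -4.70 for TR36756|c0_g3, 0.22 for TR37751|c2_g3, -0.55 for TR41584|c0_g1 and -1.10 for TR59688|c0_g1, at adjusted p-values of 0.00242 or lower by edgeR. For TR37751|c2_g3 the fits within a body part gave female over male differences of -0.47 in abdomens and -0.54 in heads and thoraces, which are closer to each other than this interaction, fitted over all 24 libraries.

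The response of level to mating differed between the sexes in the abdomen in 2 genes, where 8.28% of genes had such an interaction. It was 0.38 for TR37751|c2_g3 (adjusted p = 0.00746 by edgeR), at 282 ± 5.34 CPM in mated and 224 ± 5.81 CPM in virgin female abdomens and 345 ± 17.8 CPM in mated males and 334 ± 10.3 CPM in virgin males (SD, n = 3 each). It was -0.88 for TR73907|c0_g1 (adjusted p = 0.0175 by edgeR), at 4.49 ± 0.450 CPM in mated and 7.51 ± 0.285 CPM in virgin female abdomens and 7.97 ± 0.545 CPM in mated males and 6.79 ± 0.561 CPM in virgin males (SD, n = 3 each). Outliers were sought by the gap between the outermost library and its neighbour, relative to the range of its set of 6. No library was flagged in any of the 40 sets of shares examined. Several deviating libraries in a set can hide each other, so this does not show that none deviated. The mated male abdomen replicate 1 of TR36372|c5_g2, at 41.8%, was not flagged. The set of TR7953|c1_g3 in male abdomens had no spread and could give no flag.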

How the results depend on the processing

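The number of genes moved with the share required: 50 genes at 50%, 3 at 70% and 0 at 80%. It was 14 and 7 with minimum sums of 100 and 1000 counts, 8 from mated libraries alone (7 shared with the 10) and 11 from virgin ones (6 shared), and 8 to 12 with each library left out. Among counts of calls, transcript usage between the sexes gave 7 in abdomens with edgeR's F test and with limma, and 3 to 5 with each library left out, against 3; in heads and thoraces it gave 1 without a low-count filter, 1 without the 2 libraries that stand apart, 3 with edgeR's F test, 3 with limma and 1 to 3 with each library left out, against 2. The replicate block gave 1 call of usage in heads and thoraces; same-numbered libraries deviated together with correlations of -0.0576 to 0.0964 over 24 pairs, so the block is no better description of the design. Level after mating gave 3 to 5 calls in female abdomens with each library left out, against 5, and DESeq2 gave 1 in male abdomens and 1 in female heads and thoraces, against 0. Of 471 values for 26 single calls under alternatives, 445 stayed past the threshold, 26 did not and 0 changed sign; the cause was not tested. Genes with under 100 counts per library limit how finely shares are resolved.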

Other observations

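The mated male abdomen replicate 1 had the lowest share of the abdomen transcript among the 6 male abdomens in 6 of the 9 genes whose share varied there, where each other male abdomen had it in at most 1 gene. The shares were 62.0% in TR41584|c0_g1, 41.8% in TR36372|c5_g2, 69.4% in TR28274|c4_g1, 66.2% in TR37751|c2_g3, 62.8% in TR36756|c0_g3 and 71.9% in TR59688|c0_g1. In heads and thoraces of males, the mated replicate 1 had the highest share of the abdomen transcript in 5 of 10 genes. Both libraries were picked after all 24 had been ranked. Genes outside the 10 were not examined, and a cause was not tested.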
